A study of Mus musculus with 4 samples.

Results

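TGF-beta, BMP and activin pathway genes were measured in 4 clonal lines of a mouse mammary tumor, named E1, E2, M1 and M2, with Affymetrix mouse gene arrays, 1 array per line. The 49 genes listed for the pathway comprise ligands, latent binding proteins, receptors, antagonists, Smads and close Smad partners and targets. Genes without a probe set annotated to that gene alone had been left off the list, so all 49 have one. Such a probe set exists for 19938 genes in all. The brightest probe set on average was used where a gene had more than 1. Values are log2 expression levels as normalized by the authors, so a difference of 1 is a 2-fold difference.

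The lines were cloned by limiting dilution from a single spontaneous mammary tumor of a female FVB/N Tg MMTV/neu mouse, whose rat neu transgene is driven by the mammary-specific MMTV promoter. E1 and E2 are epithelial clones from cells sorted for high neu and high CD24, grown in RPMI with 20% serum, and M1 and M2 are mesenchymal-like clones from cells low in both, grown in MEGM with 2% serum, bovine pituitary extract, epidermal growth factor, insulin and hydrocortisone. Cell type and growth medium therefore cannot be told apart. E1, E2 and M2 formed tumors in the mammary fat pad, whereas M1 did not.

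The pathway works through secreted dimers of the TGF-beta superfamily. TGF-beta is held in an inactive complex with latent TGF-beta binding proteins in the matrix, while activins and BMPs are restrained by secreted antagonists such as follistatin, chordin and noggin. The ligands join type I and type II receptor kinases that phosphorylate receptor Smads (Smad2 and Smad3 for TGF-beta and activin, Smad1, Smad5 and Smad9 for BMP), which enter the nucleus with Smad4. Smad6 and Smad7 inhibit the pathway and are among its own targets, as are the Id genes downstream of BMP. In mammary carcinoma cells TGF-beta is a classical inducer of epithelial-mesenchymal transition.

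The labelled types were checked against markers. E-cadherin (Cdh1), Epcam and Cldn7 were at least 2-fold higher in both E lines, and Zeb1, Twist1 and Cdh2 in both M lines. The other 3 epithelial markers did not separate the types: Krt8 and Krt18 were high in all 4 lines, and Krt19, at 6.40 and 6.33 in E1 and E2, was near the level of silent genes. Vim, Fn1 and Sparc were high in all lines. Over the 4 lines, the markers of other cells ranged from 6.39 to 7.36 for 4 myoepithelial genes, from 5.51 to 7.58 for 3 endothelial genes with the highest value in Cdh5 in M1, from 5.51 to 11.6 for 3 immune genes and from 4.76 to 6.77 for 2 fat genes. Of these, Pecam1, Kdr, Ptprc and Adipoq lay at or below 5.92 in every line, while Cd3e and Plin1 lay between 6.62 and 6.90 and the macrophage-associated Cd68 between 8.77 and 11.6. Whether such cells had a part in any difference was not tested. The table holds no measure of background, so the 95th percentile of 1027 olfactory receptor genes, between 6.17 and 6.29 in the 4 lines, was taken as the level of genes presumed silent. Fstl1, Bmp2, Bmpr1b and Grem1 were below it in all 4 lines. A fold against a level near this value compares listed values and is not a ratio of transcripts.

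The 49 genes were divided between the types in both directions. Grouped after the values were seen, the secreted factors among them had the largest median difference. limma called 7 of 49 (14.3%) different between E and M at an adjusted p under 0.05. Of all genes, 3.84% were called, and of genes with a mean above the olfactory 95th percentile, 5.47%. The 49 genes were chosen with earlier results of these data known, so the shares describe the list and do not test it. Ltbp2, Bambi and Inhbb were higher in E (3 of 49, against 2.15% of all genes), and Fstl3, Chrd, Ltbp4 and Id1 were higher in M (4 of 49, against 1.7%). Without E1 or without E2, limma called none of the 49 (18 and 16 at an unadjusted p under 0.05) and 0 probe sets in all, while it called 16 without M1 and 16 without M2. In these last fits the M arm is 1 array and the spread comes from E1 and E2 alone, and calls rose over all probe sets too, to 1761 and 1879 of 23410 from 874. When values below 6.78, the median of all values, were raised to it, only Ltbp2 and Ltbp4 of the 49 were called. Calls over all probe sets fell as well, to 223 of 23410 from 874. The log2 differences of Bambi, Inhbb, Fstl3, Chrd and Id1 did not change with the raised floor.

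By size, 8 genes were at least 2-fold higher in E with no overlap between the types (4.35% of all genes) and 9 were at least 2-fold higher in M (5% of all genes). For 23 of the 49 (46.9%) all 4 levels fell inside a 2-fold span, compared with 81.6% of all genes. All genes include many near the silent level, as 13499 of 19938 had a mean above the olfactory 95th percentile. The shares by size were not taken for these brighter genes alone. When the genes were grouped by where their product acts, a grouping chosen after the values were seen, 11 of 21 secreted factors were at least 2-fold apart without overlap, compared with 2 of 12 membrane proteins and 4 of 16 intracellular proteins. The median absolute difference between E and M was 1.34 for the secreted factors, 0.22 for the membrane proteins and 0.56 for the intracellular proteins, compared with 0.17 for all genes.

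**Figure D1:**
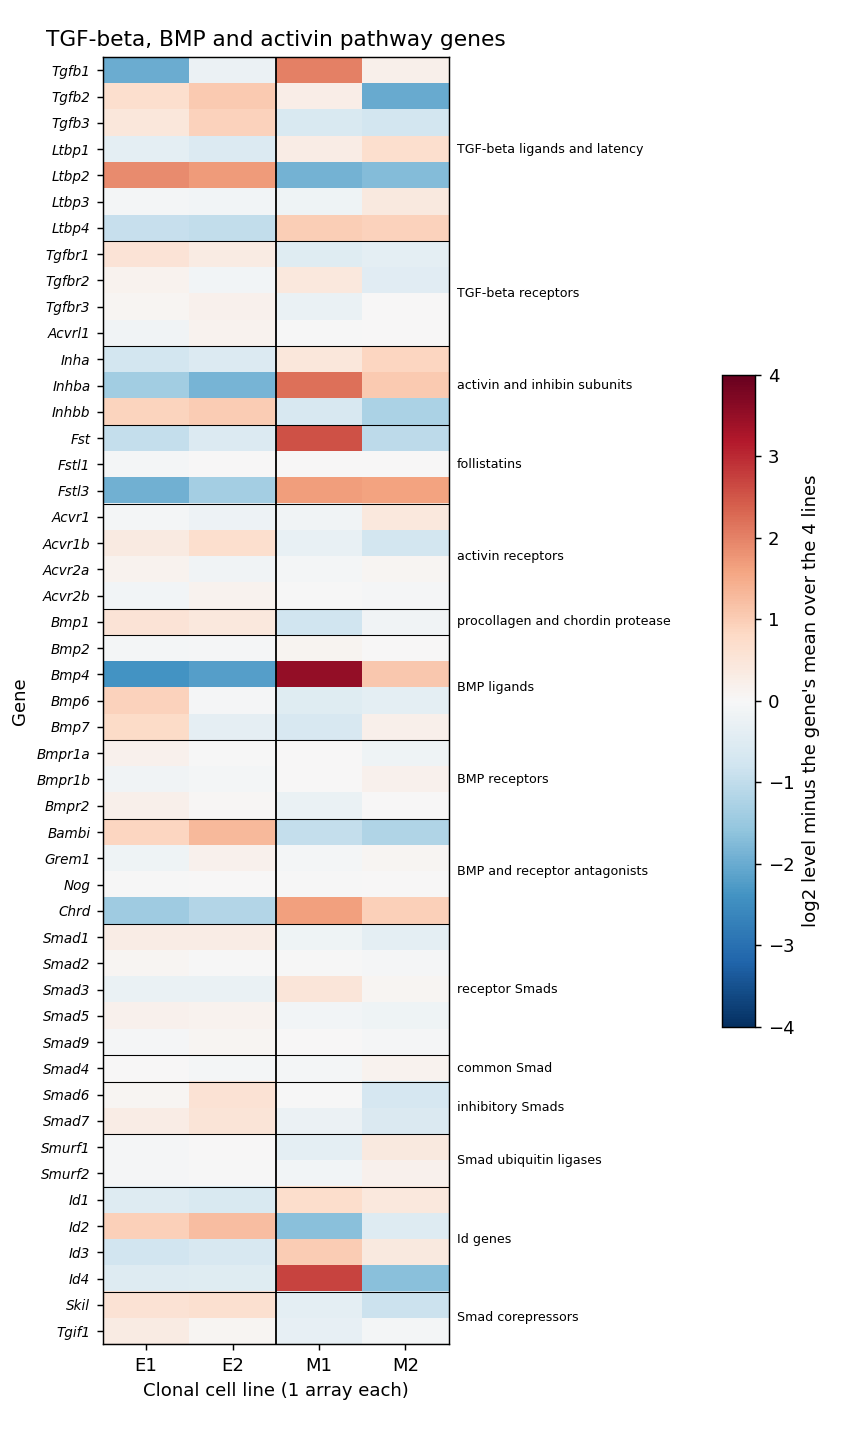
Log2 level of each of the 49 genes in each line (columns) after subtraction of the gene's mean over the 4 lines, with genes (rows) ordered by role and red above, blue below the mean. Ltbp2 and Fstl3 divide the E from the M lines in opposite directions, Fst and Id4 are high in M1 alone, and most receptors and Smads are pale.

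The 3 TGF-beta ligands had 3 different patterns. Tgfb1 had a log2 level of 6.93 in E1 and 8.67 in E2, against 10.94 in M1 and 9.10 in M2. Both M lines were above both E lines, but E2 lay closer to M2 than to E1. The difference was -2.21 (E minus M, SE 0.91, limma adjusted p = 0.336), which does not pass. Tgfb2 was at 10.97 in E1 and 11.35 in E2, against 10.56 in M1 and 8.27 in M2, so that M2 alone stood apart, 4.88-fold below M1. Its difference of 1.75 (SE 0.83) does not pass (limma adjusted p = 0.407). Tgfb3 was at 12.07 and 12.54 in the E lines and 11.01 and 10.91 in the M lines, a difference of 1.34 (SE 0.20, limma adjusted p = 0.0594), which also does not pass.

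Latent TGF-beta binding proteins anchor the inactive ligand in the matrix, with Ltbp2 an exception that does not bind latent TGF-beta. Ltbp2 was at 10.46 in E1 and 10.29 in E2, against 6.69 in M1 and 6.85 in M2. This was 12.2-fold higher in E (log2 difference 3.60, SE 0.13, limma adjusted p = 0.00300), the largest difference toward E among the 49 genes. Ltbp4 went the other way. It was at 7.57 and 7.49 in the E lines and 9.45 and 9.41 in the M lines, 3.74-fold higher in M (log2 difference -1.90, E minus M, SE 0.11, limma adjusted p = 0.00684). For both genes the clones of a type lay within 0.17 of each other. Ltbp1 was at 10.45, 10.30, 11.14 and 11.53 in E1, E2, M1 and M2 and did not pass (limma adjusted p = 0.0916), and Ltbp3 was between 11.96 and 12.53 in all lines.

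**Figure D2:**
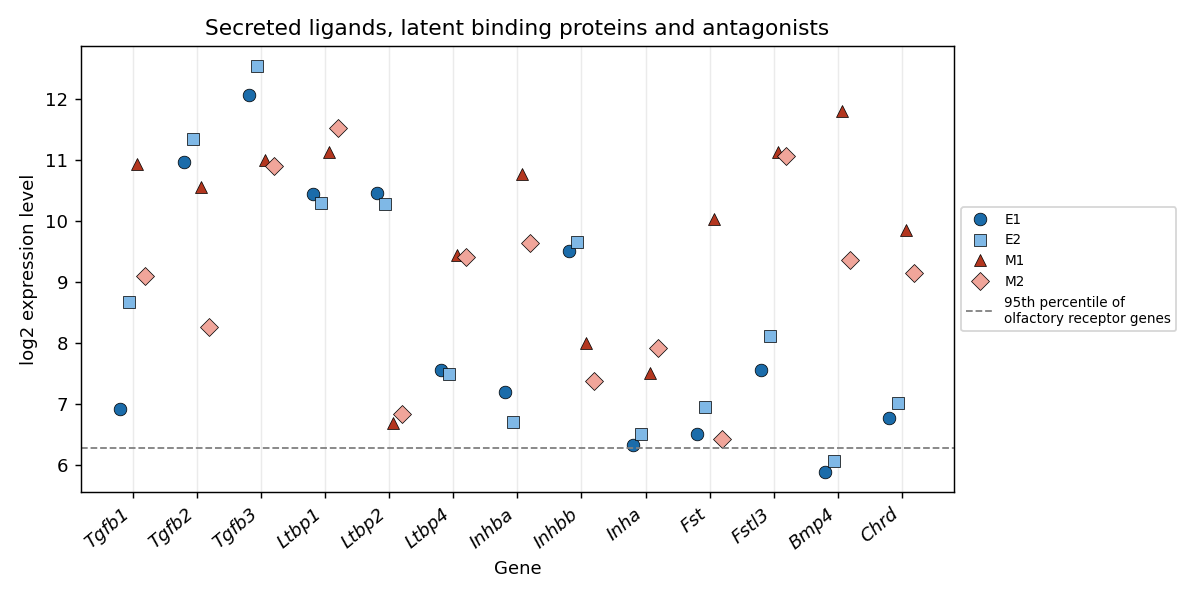
Log2 expression level (vertical axis) of 13 secreted ligands, latent binding proteins and antagonists (horizontal axis) in each line, 1 array per line, with a dashed line at 6.29, the highest of the 4 olfactory 95th percentiles. Among those shown, the symbols of the 2 types separate for all but Fst. Fst is high in M1 at 10.03 and between 6.43 and 6.95 in the other lines. The genes shown are a choice from the 21 secreted factors. Of those not shown, Ltbp3, Fstl1, Bmp7, Nog and Grem1 overlapped between the types, while Bmp1, Bmp2 and Bmp6 did not.

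The activin beta subunits lay in opposite order between the types, and the test called Inhbb alone. Inhbb, the subunit of activin B, was at 9.52 in E1 and 9.66 in E2, against 8.00 in M1 and 7.39 in M2, 3.71-fold higher in E (log2 difference 1.89, SE 0.25, limma adjusted p = 0.0455). This call was lost when each array was centred on its median (limma adjusted p = 0.0573). Inhba, the subunit of activin A, was at 7.20 and 6.71 in the E lines and at 10.77 and 9.64 in M1 and M2. Its difference of -3.25 (SE 0.45) was larger, but the M lines were 1.13 apart and it narrowly missed the threshold (limma adjusted p = 0.0515). It passed with quantile normalization (limma adjusted p = 0.0401), among brighter probe sets (0.0382), with an intensity trend in the variance (0.0394) and with 1 probe set per gene (0.0492), but not with median centring (0.0617), a robust variance (0.0561) or the raised floor (0.268). Without M1 or M2 the adjusted p was 0.0184 and 0.00804, with the spread from the E lines alone, and without E1 or E2 0.250 and 0.302. The inhibin alpha subunit Inha was at 6.33, 6.52, 7.52 and 7.93 in E1, E2, M1 and M2 (log2 difference -1.30, SE 0.19, limma adjusted p = 0.0587).

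The follistatins Fst and Fstl3 bind activin and block its access to receptors. Fstl3 was at 7.56 in E1 and 8.12 in E2, against 11.13 in M1 and 11.07 in M2, 9.60-fold higher in M (log2 difference -3.26, E minus M, SE 0.22, limma adjusted p = 0.0113). Fst did not share this pattern. It was at 6.52 in E1 and 6.95 in E2, against 10.03 in M1 and 6.43 in M2, so that M1 alone was high, 12.2-fold above M2. The study singled out Fst from these same arrays, and its values are given as a description. Fstl1 lay between 6.06 and 6.16, below the olfactory level in every line.

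Among the BMP ligands, Bmp4 differed most. It was at 5.89 in E1 and 6.08 in E2, against 11.80 in M1 and 9.37 in M2. Both E lines were below the olfactory level and both M lines far above it. The difference of -4.60 (E minus M, SE 0.87) was the largest of the 49 genes, but with M1 5.39-fold above M2 it did not pass (limma adjusted p = 0.0953). With 1 M line left out, so that the spread came from the E lines alone, it was called without M1 (log2 difference -3.39, limma adjusted p = 0.00437) and without M2 (-5.82, 0.00285), but not without E1 (0.424) or without E2 (0.399). Bmp6 and Bmp7 were highest in E1, at 8.18 and 8.00, and their levels in E2 were 7.21 and 6.87. Bmp2 was at or below 5.08 in every line.

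Chordin (Chrd), which sequesters BMPs, was also higher in M. Its level was 6.78 in E1 and 7.02 in E2, against 9.86 in M1 and 9.16 in M2, 6.10-fold higher in M (log2 difference -2.61, E minus M, SE 0.28, limma adjusted p = 0.0299). Bmp1, a protease that cleaves chordin and procollagen, was at 12.43, 12.30, 11.10 and 11.74 in E1, E2, M1 and M2 and did not pass (limma adjusted p = 0.173). Bambi, a membrane pseudoreceptor that dampens TGF-beta and BMP signaling, was at 9.28 in E1 and 9.72 in E2, against 7.47 in M1 and 7.21 in M2. It was 4.47-fold higher in E (log2 difference 2.16, SE 0.21, limma adjusted p = 0.0228). The antagonists noggin (Nog), at 7.15 to 7.19, and Grem1, at 5.86 to 6.20, had nearly the same level in all lines.

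**Figure D3:**
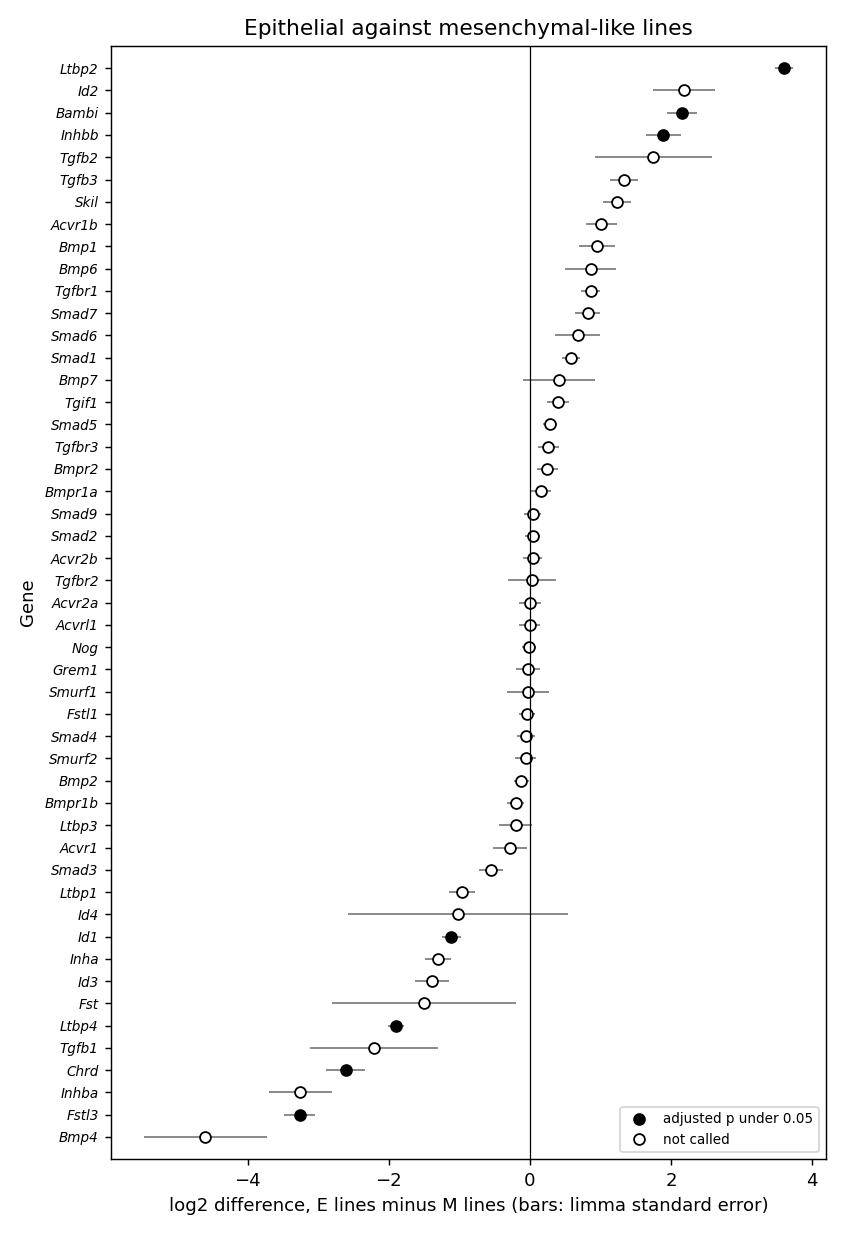
Log2 difference of the mean of E1 and E2 from the mean of M1 and M2 (horizontal axis) for each of the 49 genes (vertical axis), with limma standard errors as bars. Filled points are the 7 called genes; Bmp4 has the largest difference at -4.60 but a standard error of 0.87, and Id4 has the widest bar.

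None of the 11 receptors was called between the types. As 3.84% of all genes were called, a count of none among so few genes says little. The 4 levels of each receptor spanned at most 1.39. Bmpr1b was below the olfactory level in every line, and Acvrl1 lay just above it, at 6.57 to 6.86. Tgfbr1, the type I receptor of TGF-beta, was at 10.28 and 10.05 in the E lines and 9.26 and 9.34 in the M lines (log2 difference 0.86, SE 0.13, limma adjusted p = 0.0639). Acvr1b, a type I receptor of activin, was at 9.37 and 9.69 in the E lines and 8.74 and 8.30 in the M lines (log2 difference 1.01, SE 0.22, limma adjusted p = 0.119). The type II receptor Tgfbr2 overlapped between the types, at 10.45, 10.18, 10.72 and 9.84 in E1, E2, M1 and M2. The BMP receptors Bmpr1a and Bmpr2 spanned 0.34 and 0.47, and the co-receptor Tgfbr3 spanned 0.45.

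The receptor Smads and Smad4 had similar levels in all lines. Over these 6 genes the widest span was 0.75, in Smad3, which was at 11.27 and 11.26 in the E lines, 12.01 in M1 and 11.62 in M2 (limma adjusted p = 0.225). The BMP Smad Smad1 was at 9.26 and 9.27 in the E lines and 8.80 and 8.58 in the M lines (limma adjusted p = 0.128). Smad2 spanned 0.11 and Smad4 0.21. Their log2 differences between E and M were 0.04 (SE 0.11) and -0.05 (SE 0.13).

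The feedback inhibitor Smad7 was at 10.11, 10.35, 9.57 and 9.25 in E1, E2, M1 and M2 (limma adjusted p = 0.121). Smad6 was at 7.98, 8.48, 7.89 and 7.21 (limma adjusted p = 0.395). Skil, a corepressor induced by TGF-beta that binds Smads, was at 10.10 and 10.14 in the E lines and 9.13 and 8.66 in the M lines (log2 difference 1.23, SE 0.20, limma adjusted p = 0.0687). These 3 genes lay lower in both M lines, but none passed the test. Tgif1 and the Smad ubiquitin ligases Smurf1 and Smurf2 each spanned less than 2-fold.

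**Figure D4:**
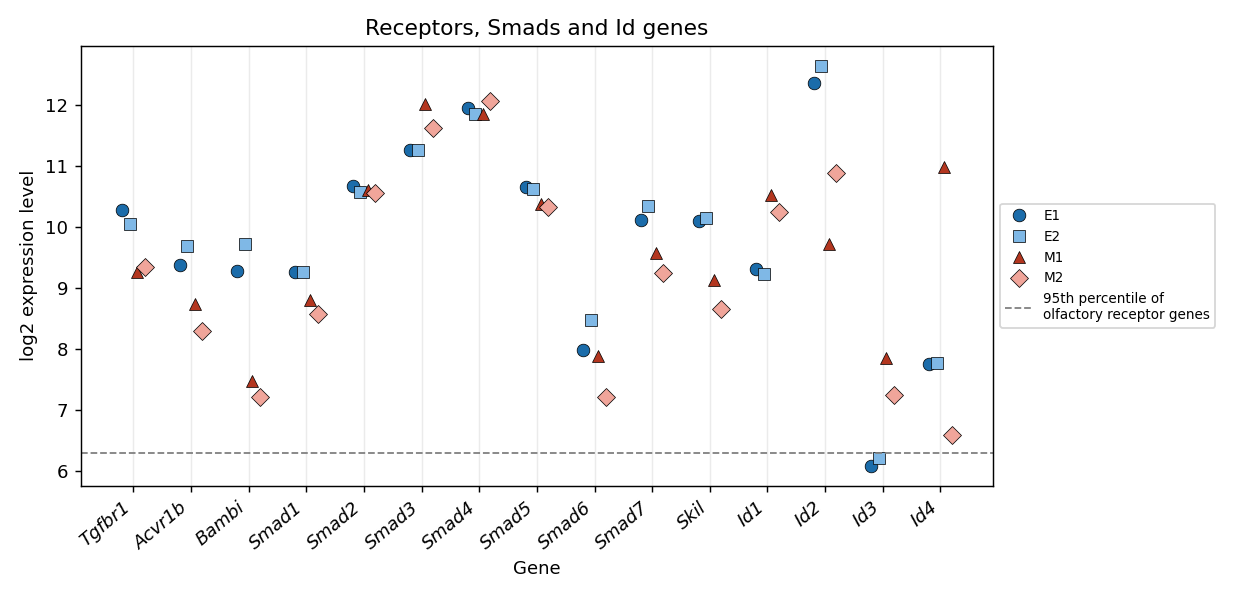
Log2 expression level (vertical axis) of 15 receptors, Smads, corepressors and Id genes (horizontal axis) in each line, 1 array per line, with the dashed line at 6.29 as the level of silent genes. The points of Smad2 and Smad4 nearly coincide, while the Id genes spread over up to 4.38, in Id4.

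The Id genes encode inhibitors of basic helix-loop-helix factors and are widely used as readouts of BMP signaling. Their patterns differed. Id1 was at 9.31 in E1 and 9.23 in E2, against 10.52 in M1 and 10.24 in M2, 2.16-fold higher in M (log2 difference -1.11, E minus M, SE 0.14, limma adjusted p = 0.0448). This call was near the threshold and was lost with arrays centred on their medians (limma adjusted p = 0.0697) and with an intensity trend (0.0673). Id3 was at 6.09 and 6.22 in the E lines, below the olfactory level, and 7.85 and 7.24 in the M lines (log2 difference -1.39, SE 0.24, limma adjusted p = 0.0834). Id2 took the opposite order, at 12.36 in E1 and 12.64 in E2, against 9.73 in M1 and 10.89 in M2, a difference of 2.19 (SE 0.44, limma adjusted p = 0.104). Id4 was at 7.76 in E1 and 7.78 in E2, against 10.98 in M1 and 6.59 in M2. The M lines lay on either side of the E lines, 20.9-fold apart, and the difference between the types was -1.02 (SE 1.56, limma adjusted p = 0.839).

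Upstream sequences are shown for the 3 Id genes that differed in pattern and have a window in the RefSeq promoter table (GRCm38.p6), which held windows for 35 of the 49 genes, and for Ltbp2 and Fstl3, the called genes with the largest difference in each direction. Each is the 250 bases before the annotated start, 5′ to 3′ on the gene's strand. Capitals mark CAGAC or its complement GTCTG, the Smad box, and the palindrome GGCGCC, a GC-rich element bound by BMP Smads.
Id2, chr12:25096093-25096342 (minus strand): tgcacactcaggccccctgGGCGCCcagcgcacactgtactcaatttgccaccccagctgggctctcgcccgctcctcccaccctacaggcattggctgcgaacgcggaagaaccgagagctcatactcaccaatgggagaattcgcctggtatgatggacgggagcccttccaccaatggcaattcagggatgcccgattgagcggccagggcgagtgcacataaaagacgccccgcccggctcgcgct
Id3, chr4:136143572-136143821 (plus strand): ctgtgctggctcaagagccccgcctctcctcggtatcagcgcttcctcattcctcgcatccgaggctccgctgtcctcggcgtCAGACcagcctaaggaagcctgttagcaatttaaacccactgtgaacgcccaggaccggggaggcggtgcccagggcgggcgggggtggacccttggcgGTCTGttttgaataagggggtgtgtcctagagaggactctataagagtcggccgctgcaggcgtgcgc
Id4, chr13:48260866-48261115 (plus strand): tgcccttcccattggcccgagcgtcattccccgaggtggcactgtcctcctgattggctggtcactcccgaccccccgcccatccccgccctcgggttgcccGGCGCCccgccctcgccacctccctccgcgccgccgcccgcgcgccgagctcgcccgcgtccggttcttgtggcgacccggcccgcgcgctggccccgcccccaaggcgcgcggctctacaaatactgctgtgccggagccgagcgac
Ltbp2, chr12:84876492-84876741 (minus strand): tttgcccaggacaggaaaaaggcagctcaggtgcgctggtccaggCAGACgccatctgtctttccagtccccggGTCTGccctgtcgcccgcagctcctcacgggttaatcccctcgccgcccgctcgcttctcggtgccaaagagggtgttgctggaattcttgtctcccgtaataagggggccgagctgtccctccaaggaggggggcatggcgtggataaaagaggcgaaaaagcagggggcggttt
Fstl3, chr10:79777024-79777273 (plus strand): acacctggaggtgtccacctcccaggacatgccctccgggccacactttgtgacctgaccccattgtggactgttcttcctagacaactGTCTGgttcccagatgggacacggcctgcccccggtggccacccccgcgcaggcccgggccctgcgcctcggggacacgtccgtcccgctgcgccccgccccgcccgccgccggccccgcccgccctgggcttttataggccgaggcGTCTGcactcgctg

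The Smad box letters occurred 2 times each in Id3, Ltbp2 and Fstl3, of which Ltbp2 was higher in E and Fstl3 in M. The GC-rich element occurred once each in Id2 and Id4. The motifs do not overlap in these windows. On both strands, the Smad box letters were present in 42.2% of all 32851 windows of this length and in 46.8% of the 47 windows of pathway genes. The GC-rich element was present in 9.59% and 25.5%, and the median GC content of these windows was 52.4% and 66.4%. A match is a match of letters and not a bound site.

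M1 was set against the 3 lines that formed tumor. limma called 0 of the 49 genes (0.0953% of all genes were called), with 3 at an unadjusted p under 0.05 (7.05% of all genes), which is no more than the share of all genes. The 3 were Fst (log2 difference 3.40, SE 0.27, limma adjusted p = 0.143), Id4 (3.60, SE 0.61, limma adjusted p = 0.414) and Bmp1 (-1.05, SE 0.34, limma adjusted p = 0.694). Raising values below the median to it, which removes spread among the low lines by construction, gave 1 call, Fst (limma adjusted p = 0.0390), a gene chosen by the study on these arrays and so not independent evidence. Without M2, the fit leaves M1 against the E lines and thus crosses type and medium. It is the same fit as that of the types without M2, and not a separate result. With 1 array of M1, the test assumes that M1 varies like the other lines, and it shares all its arrays with the comparison of the types. Its spread is that among E1, E2 and M2 and so holds the difference of type and medium. A gene that differs by type is therefore hard to call, and the count of 0 says little about such genes.

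By size, M1 was at least 2-fold above every other line for 5 genes (1.5% of all genes) and at least 2-fold below for 1 (0.662% of all genes). The 5 were the BMP and activin pathway genes Bmp4, Inhba, Fst and Id4, together with Tgfb1, and the 1 below was Id2. Against the mean of the other lines, the log2 difference was 4.69 (SE 1.73) for Bmp4, 2.92 (SE 1.39) for Inhba, 2.70 (SE 1.02) for Tgfb1 and -2.23 (SE 0.83) for Id2, with limma adjusted p between 0.745 and 0.821. For Bmp4, Inhba and Tgfb1, M2 lay between M1 and the E lines. For Id4, M2 lay below both E lines by at least 1.17, and for Fst it lay 0.09 below E1, the nearest line. M2 was at least 2-fold below every other line for Tgfb2 and Id4 (0.868% of all genes), and above every other line by that much for 0 genes.

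Direct comparison of the clones of a type sets single arrays against each other and has no test. M1 was at least 2-fold above M2 for 6 of the 49 genes (3.24% of all genes), the 5 above and Tgfb2, and below for Id2 alone (2.61% of all genes). E1 and E2 were at least 2-fold apart for Tgfb1 and Bmp7 (2.14% of all genes), with Tgfb1 3.34-fold higher in E2. The median absolute difference over the 49 genes was 0.16 between E1 and E2 and 0.30 between M1 and M2, and between 0.56 and 0.68 for pairs of unlike type. Over all genes these values were 0.15, 0.19 and 0.20 to 0.22.

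**Figure D5:**
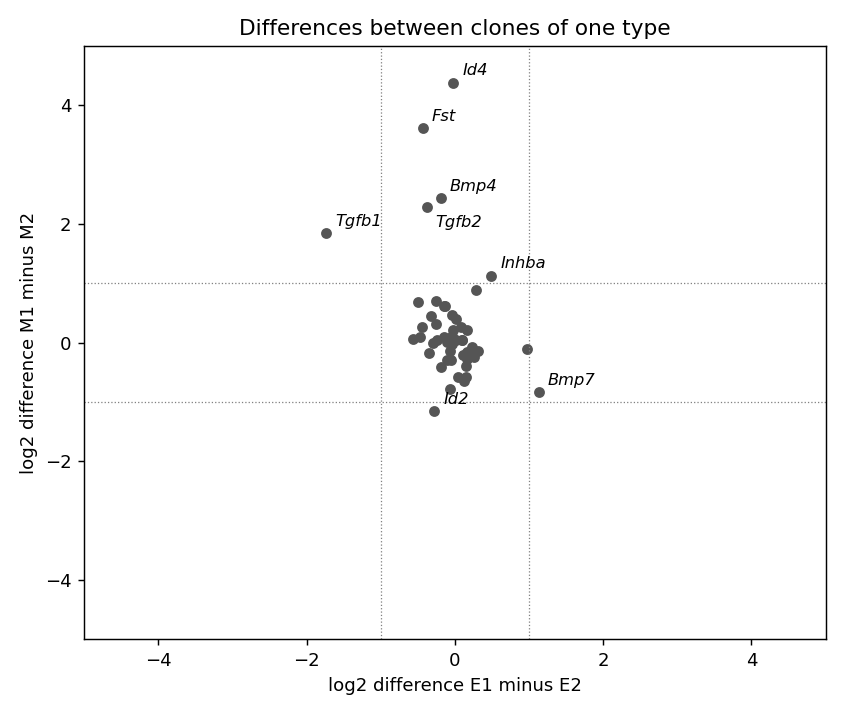
Log2 difference between the E clones (horizontal axis, E1 minus E2) and between the M clones (vertical axis, M1 minus M2) for the 49 genes, 1 point per gene, with dotted lines at 2-fold. Id4 and Fst differ most between M1 and M2, at 4.38 and 3.61, while E1 and E2 differ most in Tgfb1.

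Other genes of the pathway were taken from a list of 108, of which 100 had a probe set of their own and the rest were not analysed here. Of these, limma called 8 between the types, 5 higher in E and 3 higher in M (8% against 3.84% of all genes), and 0 for M1 against the other lines. These lists too were chosen with earlier results known, so the shares are a description. The median absolute difference was 0.16, compared with 0.17 for all genes. Among 11 genes that act on latent TGF-beta, limma called 3 higher in E and 0 higher in M (2.15% and 1.7% of all genes). Mmp14, also among the 11, lay higher in both M lines but did not pass. It was at 6.77, 6.98, 7.84 and 9.36 in E1, E2, M1 and M2 (limma adjusted p = 0.234). The 3 called genes included the beta subunits of the integrins that release active TGF-beta. Itgb6 was at 8.50 and 7.75 in the E lines and 4.73 and 5.22 in the M lines (log2 difference 3.15, SE 0.33, limma adjusted p = 0.0287). Itgb8 was at 10.87 and 10.54 in the E lines and 7.87 and 7.30 in the M lines (log2 difference 3.12, SE 0.25, limma adjusted p = 0.0161). Thrombospondin 1 (Thbs1), an activator of the latent complex, was at 13.04, 12.96, 12.00 and 12.13 in E1, E2, M1 and M2 (limma adjusted p = 0.0422).

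Of 20 further ligands, Gdf11 was called, at 7.73 and 7.45 in the E lines and 9.82 and 10.07 in the M lines (log2 difference -2.36, SE 0.17, limma adjusted p = 0.0120). Of 14 further antagonists, the secreted protease Htra1 was called, at 5.98 and 5.67 in the E lines, 10.39 in M1 and 12.41 in M2 (limma adjusted p = 0.0468). Of 18 TGF-beta target genes, 1 was called in each direction. The cell cycle inhibitor Cdkn2b was at 9.91 and 9.94 in the E lines and 7.02 and 7.22 in the M lines (limma adjusted p = 0.00398), and the fibronectin receptor subunit Itga5 was at 5.68, 5.86, 10.71 and 11.76 in E1, E2, M1 and M2 (limma adjusted p = 0.0123). Of 7 BMP target genes, Hey1 was called, at 11.95 and 12.16 in the E lines and 6.58 and 6.89 in the M lines (limma adjusted p = 0.00284). None of 9 further receptors and co-receptors and none of 21 intracellular modulators was called. With 3.84% of all genes called, lists of this size can give none. The largest differences in these lists were in Rgma (0.69, limma adjusted p = 0.503) and Tdgf1 (-0.21, 0.613), and in Nedd4l (1.55, limma adjusted p = 0.0848) and Pmepa1 (1.09, 0.198). As for the 49 genes, none of the 8 calls was made without E1 or without E2.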

How the data were processed

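RNA of each line was hybridized to 1 Affymetrix mouse gene array. The deposited values are log2 expression levels of 35556 probe sets, from 2.28 to 14.54, made by the authors with Partek per the submitters' processing notes; background correction, normalization and summarization are not given in the sources used here. Without a background measure, the number of arrays and low levels limit precision.

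E was set against M, and M1 against the other 3 lines, by limma 3.58.1 (lmFit, eBayes, two-sided; R 4.3.3) over 23410 probe sets with a gene symbol (21789 with 1 symbol, 1621 with several), with Benjamini-Hochberg adjustment over all of them and a threshold of 0.05. The code of the fit was run on simulated arrays of independent values, which hold no effect of clone, medium or culture. That run was a check of the code and says nothing about the spread between clones. Nothing in the labels says that a line was grown more than once. For E against M, p-values therefore measure the spread between clones of a type, which 1 array per line cannot separate from culture and array. For M1 against the rest, they measure the spread among E1, E2 and M2, which holds the difference of type and medium. The 49 genes and the lists of other pathway genes were chosen with earlier results of these data known. Full values are given for genes that were called, lay at least 2-fold apart without overlap or had M1 or M2 at least 2-fold outside the other lines, and for Fst. From each list of other genes, up to 4 called genes or else the 2 with the largest difference are named, and Mmp14 besides. Alternatives were quantile normalization, median centring, a raised floor, a filter on dim probe sets, other variance models, the choice of probe set, other fold thresholds, the clone number as a block and leaving out each line.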

Additional observations from a re-analysis of the deposited data

How the results depend on the processing

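Of the 7 genes called between E and M, limma called between 0 and 16 of the 49 when a line was left out, with 0 without E1 and without E2 and 16 without M1 and without M2, where the spread comes from the E lines alone. It called 2 when values below the median were raised to it, 1 (Ltbp2) with the clone number as a replicate block, and 5 to 9 under the other settings. The labels give the numbers of the clones as names only. The correlation of E1 minus E2 with M1 minus M2 over 23410 probe sets was -0.0375, so no strong shift shared by number was seen. This value cannot tell whether lines of the same number were handled together. For M1 against the other lines, leaving out M2 gave that same fit of M1 against E1 and E2 over again. Beyond that fit, Fst alone was called, with the raised floor. The sign of the difference between E and M turned without M1 for Fst, which ranged from -3.30 to 0.31, and for Id4, from -3.21 to 1.18. For the other genes called or at least 2-fold apart, the sign was kept in every setting. Between E and M, 19 genes were at least 2-fold apart, whether or not the types overlapped, and 8 at least 4-fold. Between M1 and M2 the count went from 7 at 2-fold (5.84% of all genes) to 15 at 1.5-fold and 4 at 4-fold. M1 was at least 4-fold outside the other lines for 3 genes in place of 6. Shares of all genes were not taken at 1.5-fold or 4-fold, nor between the types with overlap allowed. These counts therefore describe the 49 genes only. Quantile normalization and median centring moved the median difference of all genes by 0.024 and 0.044, and turned the sign of 4 and 5 of the 49 genes, whose differences were at most 0.04 in size. Causes were not tested.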
